A study of Drosophila melanogaster with 27 samples.

Results

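The proteasome subunit genes of Drosophila melanogaster were followed through 9 groups of early embryos. Members were chosen by FlyBase symbol, as every gene whose name begins with Prosalpha, Prosbeta, Rpt or Rpn and a digit. There were 48 such genes among the 17714 genes in the tables, made up of 12 Prosalpha, 13 Prosbeta, 9 Rpt and 14 Rpn genes. Of these, 32 were the standard subunits (7 Prosalpha, 7 Prosbeta, 6 Rpt and 12 Rpn) and 16 were paralogs, whose symbols end in R or T with or without a digit. Poly(A) RNA was sequenced from 27 libraries, 3 in each group. The study asked which maternal mRNAs are regulated by Nanos (Nos), an RNA-binding repressor of the posterior pole.

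In the first experiment, 15 libraries came from embryos fixed in methanol, stained with DAPI and sorted by hand at nuclear cycle 9 to 10. Their mothers were w1118, written here as w, or carried a UASp transgene encoding Upf1, Nos, the fusion Upf1-Nos, or the fusion Upf1-NosL7. Upf1 is an RNA helicase of nonsense-mediated decay, and NosL7 lacks part of the C-terminal tail of Nos. Each transgene was driven in the female germline by maternal alpha-tubulin GAL4-VP16 and carried the nos 3′ UTR. Upf1-Nos embryos had an abnormal distribution of nuclei and were sorted by approximate age. In the second experiment, 12 libraries came from embryos that were not sorted, collected at 0-1h or 2-3h from w females or from females with nosBN over the deficiency Df(3R)Exel6183, written nos-.

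The proteasome is the protease that degrades ubiquitinated proteins. Its core particle is a stack of rings in which alpha subunits form the gated outer rings and beta subunits the inner rings with the proteolytic sites, while a regulatory particle recognises, deubiquitinates, unfolds and feeds in the substrate. Rpt subunits are the ATPases of the base of the regulatory particle, and Rpn subunits are its scaffolds, ubiquitin receptors and lid. The early embryo depends on mRNA and protein supplied by the mother until its own genome is switched on.

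Library totals were 14022879 to 22002028 estimated counts in the sorted embryos and 15253031 to 21661085 in the others. Upf1 mRNA was 88.7 to 200 TPM (transcript level corrected for length, as a share of its library) in the Upf1 libraries against 7.05 to 15.3 in w, but 4.59 to 8.20 in Upf1-Nos and 10.4 to 14.1 in Upf1-NosL7, so that this gene did not check the labels of the fusion libraries. The nos transcript was not analysed here. In w at nuclear cycle 9, replicate 3 stood furthest from its partners, with chi-square values of 126 and 128, divided by the degrees of freedom, against at most 93.5 in every other replicate pair. The summed level of 3 zygotic gap genes was 13.8 to 16.5 TPM in w and 13.9 to 32.5 TPM in nos- at 0-1h. At 2-3h it was 228 to 247 TPM in w and 116 to 162 TPM in nos-. At 0-1h, Mhc and elav, markers of older embryos, summed to 2.39 to 10.96 TPM in w and 1.75 to 14.8 TPM in nos-. Mhc alone was at 0.04, 0.12 and 10.86 TPM in nos- at 0-1h. At 2-3h both genes summed to 19.8 to 23.8 TPM in w and 12.9 to 23 TPM in nos-. In the sorted libraries they summed to 0.05 TPM at most. In the bulk samples that were not sorted, fewer cells of a type and less RNA per cell cannot be told apart. The sorted embryos were at a stage before the cellular blastoderm. In Upf1-Nos, sorted by approximate age, a difference in age or development cannot be told apart from one in mRNA loss.

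In sorted w embryos the core genes were the more abundant class. Among standard core genes other than Prosalpha1, group means ran from 470 ± 35.3 TPM for Prosbeta2, which carries the trypsin-like site, to 892 ± 59.0 TPM for Prosalpha5 (SD, n = 3). Standard regulatory genes ran from 80.1 ± 16.9 TPM for Rpn1 to 548 ± 36.4 TPM for Rpn12 (SD, n = 3). Prosalpha1 and its near-identical copy Prosalpha1R share sequence, and the division of reads between them is uncertain. Prosalpha1 was at 61.7 ± 17.2 TPM and Prosalpha1R at 1153 ± 68.8 TPM (SD, n = 3). Of the 48 members, 34 passed the filter on low counts, 15 in the core (the standard subunits and Prosalpha1R) and 19 in the regulatory particle (the standard subunits and Rpt3R, a paralog of the ATPase Rpt3). The other 14 were all paralogs.

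The balance between the particles was expressed as the summed TPM of the regulatory genes divided by that of the core genes, over all 48 members. In w at nuclear cycle 9 it was 0.438, 0.490 and 0.521 in the 3 libraries. In Upf1-Nos it was 0.229, 0.189 and 0.218. Every Upf1-Nos library was thus below every other sorted library, the Upf1-NosL7 libraries being at 0.396, 0.402 and 0.426, the Upf1 libraries at 0.478, 0.529 and 0.565 and the Nos libraries at 0.531, 0.535 and 0.531. The mean ratio in Upf1-Nos was 0.439 of that in w and the mean ratio in Upf1-NosL7 0.845 of it. Taken as the median over standard members of the level relative to w, in place of the sum, the ratio in Upf1-Nos was 0.279 of that in w. A second low state was found in embryos that were not sorted: in w the ratio was 0.807, 0.744 and 0.706 at 0-1h and 0.313, 0.312 and 0.320 at 2-3h. In nos- it was 0.741, 0.671 and 0.752 at 0-1h and 0.428, 0.399 and 0.391 at 2-3h, so that the nos- libraries overlapped those of w at 0-1h and lay above them at 2-3h. The mean ratio in w at 2-3h was 0.419 of that at 0-1h, or 0.257 by the median of levels relative to w at 0-1h.

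**Figure D1:**
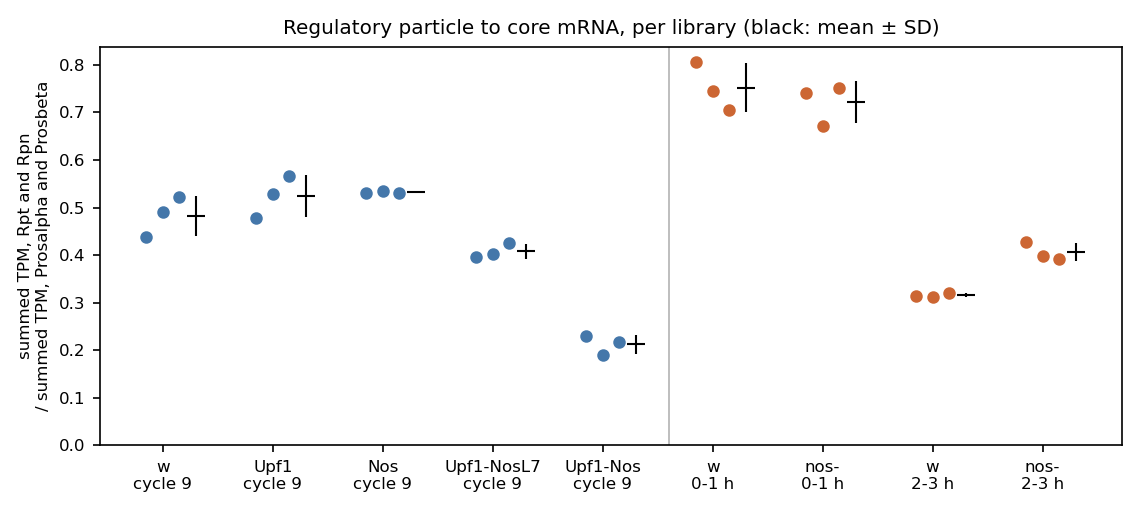
Summed TPM of the regulatory particle genes (Rpt and Rpn) divided by that of the core genes (Prosalpha and Prosbeta), 1 point per library, with the mean ± SD of each group in black. Upf1-Nos libraries are at 0.189 to 0.229 against 0.438 to 0.521 in w at nuclear cycle 9, and w falls from 0.706 to 0.807 at 0-1h to 0.312 to 0.320 at 2-3h.

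The comparison of Upf1-Nos with w asked which maternal mRNAs are lost when Nos brings a decay factor to its targets. More than 2-fold falls were found in the regulatory particle, in 14 of its 19 tested genes, and in none of the 15 core genes. Of the 34 members tested, 14 were called lower, at an adjusted p below 0.05 and a change above 2-fold (edgeR quasi-likelihood test, Benjamini-Hochberg adjustment), and 1 was called higher. Across all genes tested, 39.3% were called lower and 1.05% higher. The 14 were 4 Rpt and 10 Rpn genes. Median log2 changes were -0.06 in the core, -1.04 among Rpt, -2.17 among Rpn and -0.50 over all genes tested. Levels below are normalised CPM, the count of a gene scaled to the size of its library by TMM factors or, in Upf1-Nos, by factors from 20 correction genes in their place. They compare libraries for 1 gene, and carry no correction for gene length.

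Core genes had log2 changes between -0.47 and 0.12. Prosalpha3, an outer-ring subunit, had the lowest value. It was at 531, 484 and 419 normalised CPM in w and 344, 339 and 349.8 in Upf1-Nos, a log2 change of -0.47 ± 0.11 (SE, n = 3 each, edgeR adjusted p = 0.00171) that did not reach 2-fold although the groups did not overlap. Prosbeta5, which carries the chymotrypsin-like site, had the highest, with 544, 524 and 495 in w and 546, 579.8 and 571 in Upf1-Nos. Its log2 change was 0.12 ± 0.10 (SE, n = 3 each, edgeR adjusted p = 0.299). Prosalpha5 was at 623, 625 and 468 in w and 519, 599 and 531 in Upf1-Nos, and Prosbeta2 at 394, 351 and 346 against 366, 337 and 362. The groups overlapped for both of these ring subunits.

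The ATPases of the base form a single ring of Rpt1 to Rpt6, yet their mRNAs did not move together. Rpt5 was at 268, 323 and 283 normalised CPM in w and 51.0, 40.7 and 53.3 in Upf1-Nos, which was 6.03-fold lower (log2 change -2.59 ± 0.12, SE, n = 3 each, edgeR adjusted p = 5.02e-11). Rpt3 was at 330.5, 319 and 285 in w and 75.2, 59.3 and 78.8 in Upf1-Nos, 4.38-fold lower (adjusted p = 5.93e-10, edgeR). In these ATPases all 3 Upf1-Nos libraries were far below all w libraries. Rpt6 went from 450.2, 485 and 432 in w to 183, 150.5 and 174 in Upf1-Nos, 2.70-fold lower (adjusted p = 1.53e-08, edgeR). Rpt1 went from 374, 378 and 361 to 191, 156 and 195, 2.05-fold lower (adjusted p = 4.14e-07, edgeR). Groups were again separate, but Rpt1 lay close to the threshold, and without Upf1-Nos replicate 2 its log2 change was -0.96 and it was no longer called. Rpt2, at 365, 418 and 356 against 209, 186 and 218, had a log2 change of -0.89 ± 0.11 (SE, n = 3 each, edgeR adjusted p = 4.57e-06) and missed the 2-fold limit. Rpt4 was the exception in the ring. It was at 361, 289 and 352 in w and 398, 315 and 359 in Upf1-Nos, with overlapping groups and a log2 change of 0.10 ± 0.10 (SE, n = 3 each, edgeR adjusted p = 0.429).

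Of the 12 Rpn genes 10 fell by more than 2-fold and Rpn6 by less, and the largest fall of any member was that of Rpn11, the deubiquitinase of the lid that removes ubiquitin chains as substrates enter. Rpn11 was at 204, 242 and 187 normalised CPM in w and 10.4, 6.83 and 10.9 in Upf1-Nos, 22.5-fold lower (log2 change -4.49 ± 0.17, SE, n = 3 each, edgeR adjusted p = 9.73e-12). Its structural partner Rpn8 went from 254, 319.5 and 252 to 29.97, 18.3 and 26.5, 11.1-fold lower (adjusted p = 5.07e-11, edgeR). Rpn7, a lid subunit, went from 205, 241 and 209 to 15.9, 11.9 and 19.9, 13.8-fold lower (adjusted p = 1.4e-10, edgeR). These lid mRNAs were thus left at levels far below any w library. The large scaffolds of the base also fell. Rpn1, which binds ubiquitin-like shuttle proteins in yeast, went from 186, 203 and 231 to 23.0, 11.8 and 25.3, 10.3-fold lower (adjusted p = 3.31e-09, edgeR). Rpn2 went from 258, 323 and 357 to 85.4, 48.6 and 90.7, 4.18-fold lower (adjusted p = 3.59e-07, edgeR). For both scaffolds replicate 2 was the lowest Upf1-Nos library.

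The remaining lid subunits fell less. Rpn9 was at 401, 399 and 353 normalised CPM in w and 72.0, 58.1 and 67.8 in Upf1-Nos, 5.83-fold lower (adjusted p = 4.22e-11, edgeR). Rpn3 was at 269, 310.3 and 276 against 68.1, 46.8 and 61.8, 4.84-fold lower (adjusted p = 3.34e-10, edgeR). Rpn5 was at 421, 449 and 481 against 155, 101 and 138, 3.43-fold lower (adjusted p = 1.06e-08, edgeR). Groups did not overlap for any of the 3, and the same held for the ubiquitin receptors. The receptor Rpn10 was at 207, 247 and 209 in w and 77.3, 60.1 and 79.2 in Upf1-Nos, 3.06-fold lower (adjusted p = 1e-07, edgeR). The receptor Rpn13 was at 185, 206 and 165 against 67.8, 58.5 and 68.6, 2.86-fold lower (adjusted p = 3.97e-09, edgeR). The lid subunits Rpn6 and Rpn12 were the Rpn genes that were not called. Rpn6, which clamps the lid to the core in yeast, was at 611, 613 and 615 in w and 385, 329 and 349 in Upf1-Nos, a log2 change of -0.79 ± 0.08 (SE, n = 3 each, edgeR adjusted p = 2.94e-07) with separate groups. Rpn12, the last lid subunit to be added in yeast, was at 449.5, 392 and 373 against 401, 397 and 381, a log2 change of -0.04 ± 0.09 (SE, n = 3 each, edgeR adjusted p = 0.695) with overlapping groups.

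**Figure D2:**
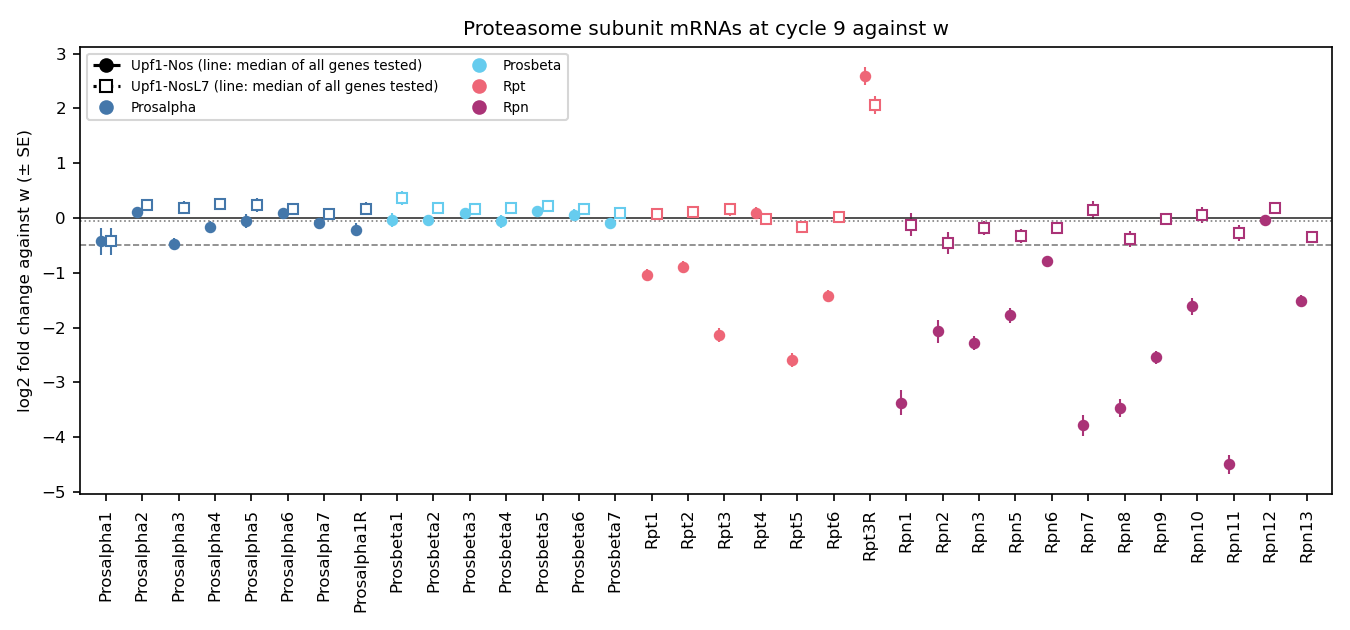
Log2 change of each tested member in Upf1-Nos and in Upf1-NosL7 against w at nuclear cycle 9 (points, with SE bars), grouped by class. In Upf1-Nos, core genes lie between -0.47 and 0.12, while Rpn11 is at -4.49 and Rpt4 and Rpn12 stay at 0.10 and -0.04.

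Among all 34 tested members, Rpt3R alone was called higher. It was at 1.89, 2.19 and 2.00 normalised CPM in w and 13.0, 11.1 and 12.3 in Upf1-Nos, a log2 change of 2.58 ± 0.16 (SE, n = 3 each, edgeR adjusted p = 1.59e-09), while its parent gene Rpt3 fell. The size of every change depended on the scaling. With the usual TMM factors and no correction genes, the median of all genes tested was 0.07 in place of -0.50, all 15 core genes were above 0, Prosalpha3 among them, and 11 members were called lower, without Rpt1, Rpt6 and Rpn13. Relative to the median of all genes, the core stood 0.44 higher on the log2 scale with the correction genes and 0.46 higher without them. Without w replicate 3, 14 members were again called lower and 1 higher. The summed gap gene level was 1.21 to 1.42 TPM in Upf1-Nos, 0.24 to 0.52 TPM in w and 1.7 to 5.23 TPM in Nos. Its part in these changes was not tested.

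Other genes of the ubiquitin-proteasome pathway were taken from a list, of which 15 genes were measured. In Upf1-Nos the median log2 change of the list was -1.85. At an adjusted p below 0.05 and any size, 12 of the 15 were lower, where 54.6% of all genes were lower. By the 2-fold call, 9 of the 15 were lower and none higher, against 39.3% and 1.05% over all genes tested. The lower genes were Sem1, a small subunit of the lid, at -3.86, Npl4 and Ufd1, cofactors of the p97 unfoldase, at -4.03 and -4.12, the ubiquitin-activating enzyme Uba1 at -2.23, and the deubiquitinase Usp14 at -2.16. They also included the transcription factor gene cnc at -2.68, the shuttle factor gene rngo at -1.43, and the polyubiquitin genes Ubi-p5E at -2.09 and Ubi-p63E at -1.85, whose repeats make read assignment uncertain. Pomp, the assembly factor of the core, was not called at -0.14, and neither were the deubiquitinase Uch-L5 at 0.05, the shuttle factors Rad23 at -0.01 and Ubqn at -0.36, PI31 at -0.51 or the proteasome activator REG at -0.56.

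Each control protein was compared with the same w libraries, and few members were called. In Upf1 embryos 0 of 34 members were called by edgeR and 0 by DESeq2, with 2 lower and 3 higher at an unadjusted p below 0.05, against 2.30% of all genes called lower and 1.72% higher. In Nos embryos 0 were called lower and 1 higher by either tool, with 2 lower and 6 higher at an unadjusted p below 0.05, against 2.87% lower and 2.73% higher over all genes. In Upf1-NosL7 embryos 0 were called lower and 1 higher by either tool, with 5 lower and 5 higher at an unadjusted p below 0.05, against 1.75% lower and 0.988% higher. The called member in Nos and in Upf1-NosL7 was Rpt3R. Regulatory genes had median log2 changes of 0.00 in Upf1, 0.14 in Nos and -0.02 in Upf1-NosL7. In Upf1-NosL7 the medians by class were 0.18 in the core, 0.07 among Rpt and -0.19 among Rpn, with -0.06 over all genes. The ratio of regulatory to core levels given above was lower in every Upf1-NosL7 library than in every w library. Rpn13 was lower in Upf1-NosL7 at an adjusted p below 0.05 and any size (edgeR), where 7.84% of all genes were. Rpn11 was at 219, 209 and 179 normalised CPM in Upf1, 229.6, 219 and 249 in Nos and 171, 176 and 176 in Upf1-NosL7, every one of them above every Upf1-Nos library. None of the 15 pathway genes was called by edgeR in these 3 comparisons.

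Upf1-Nos and Upf1-NosL7 were also compared directly, since they differ in the Nos tail. Of 34 members, 14 were called lower in Upf1-Nos and 0 higher, with 24 lower and 1 higher at an unadjusted p below 0.05 and 15 lower and 0 higher by DESeq2. Over all genes tested, 38.0% were called lower and 4.10% higher. Again 4 Rpt and 10 Rpn genes made up the 14, and no core gene was called. Rpn11 was 18.6-fold lower in Upf1-Nos (log2 difference -4.22), Rpn7 had a log2 difference of -3.93, Rpn1 of -3.25, and Rpn8 of -3.08. Rpt4 at 0.11, Rpn12 at -0.23 and Rpn6 at -0.60 were not called. Rpt2 at -0.997 stood just short of the limit and was not called. Under TMM without the correction genes 10 members were called lower, without Rpt1, Rpt6, Rpn5 and Rpn13. Of the pathway list, 9 genes were lower in Upf1-Nos by this comparison.

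The comparison of nos- with w asked what the loss of maternal Nos does to the same mRNAs. At 0-1h, 0 of 34 members were called lower and 1, Rpt3R, higher by edgeR and by DESeq2, at an adjusted p below 0.05 and a log2 change above 0.5. At an unadjusted p below 0.05 there were 0 lower and 15 higher. Over all genes, 6.74% were called lower and 10.9% higher. Median log2 changes were 0.20 in the core, 0.14 in the regulatory particle and 0.09 over all genes. None of the 15 pathway genes was called by edgeR.

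At 2-3h, 9 members were higher in nos-, all of them regulatory, and 0 were lower (edgeR), with 10 lower at an unadjusted p below 0.05 and 0 lower by DESeq2. Over all genes, 8.80% were called lower and 18.6% higher. The 9 were Rpt2, Rpt3, Rpt5, Rpt3R, Rpn1, Rpn7, Rpn8, Rpn9 and Rpn11. Median log2 changes were 0.69 among Rpt, 0.39 among Rpn, -0.19 in the core and 0.01 over all genes. Apart from Rpt3R, Rpn8 rose most, from 47.2, 45.3 and 55.2 normalised CPM in w to 93.7, 91.8 and 70.8 in nos- (log2 change 0.79 ± 0.14, SE, n = 3 each, edgeR adjusted p = 0.00111). Rpt5 was at 58.4, 69.5 and 75.4 in w and 117, 117 and 106 in nos- (log2 change 0.74 ± 0.10, SE, n = 3 each, edgeR adjusted p = 0.000152). Every nos- library was above every w library for both. At 0-1h, Rpt5 was at 294, 297 and 267 in w and 289, 288 and 266 in nos-, with overlapping groups, whereas Rpn8 was at 263, 255 and 195 against 314, 275 and 284 and was not called. Rpt2 was at 142, 169.5 and 180.2 in w and 279, 268 and 277 in nos-, with a log2 change of 0.74. The smallest called changes were those of Rpn11, at 0.55, and Rpn1, at 0.52. Rpn11 was no longer called without nos- replicate 2 of 2-3h (0.46) or w replicate 1 of 2-3h (0.40), and Rpn1 likewise (0.45 and 0.43).

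Some members went the other way at 2-3h by less than the limit on size. At an adjusted p below 0.05 and any size, 8 members were lower in nos- and 15 higher, where 20.2% of all genes were lower and 25.3% higher. The 8 were 5 alpha-ring genes (Prosalpha1R, Prosalpha2, Prosalpha5, Prosalpha6 and Prosalpha7) with Rpt4, Rpn6 and Rpn12. Prosalpha1R was at 589.7, 602 and 569 in w and 425, 455 and 468 in nos- (log2 change -0.38 ± 0.09, SE, n = 3 each, edgeR adjusted p = 0.00527). Rpt4 was at 476, 532 and 552 in w and 404, 416 and 444 in nos- (log2 change -0.30 ± 0.07, SE, n = 3 each, edgeR adjusted p = 0.0073). Rpn6 was at 517, 555 and 555 in w and 444, 432 and 451 in nos-, a log2 change of -0.29. All nos- libraries were below all w libraries for these genes. Rpt4, Rpn6 and Rpn12 were, with Rpt2, the standard regulatory genes not called lower in Upf1-Nos.

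**Figure D3:**
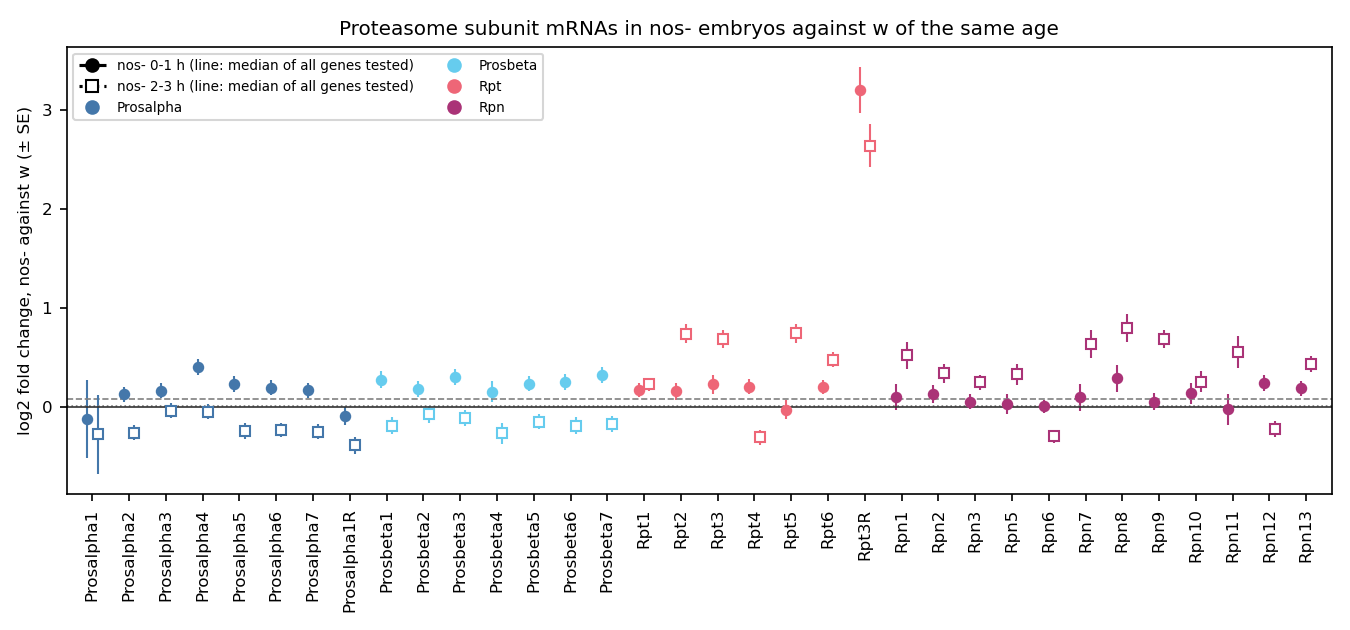
Log2 change of each tested member in nos- against w at 0-1h and at 2-3h (points, with SE bars), grouped by class. At 2-3h, Rpn8 is at 0.79 and Rpt5 at 0.74, while Prosalpha1R is at -0.38 and Rpt4 at -0.30.

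Of the pathway list, 8 of 15 genes were called higher in nos- at 2-3h and none lower (edgeR). Over all genes, 18.6% were called higher and 8.80% lower. The list's median log2 change was 0.50. Usp14 at 1.16, Ubi-p63E at 1.08, Npl4 at 0.82 and Sem1 at 0.70 were the highest of the 8. The others were cnc at 0.56, Ufd1 at 0.51, Uba1 at 0.50 and Ubi-p5E at 0.50. At an adjusted p below 0.05 and any size, 9 were higher and 1 lower, where 25.3% of all genes were higher and 20.2% lower. The summed gap gene level given above was lower in nos- than in w at this stage. For gt it was 36.7 to 48.8 TPM in nos- against 84.1 to 86.2 in w. For kni it was 23.9 to 29.6 against 70.6 to 81.3. For Kr the groups overlapped, at 55.0 to 83.4 TPM in nos- and 73.2 to 81.0 in w. The part of these levels in the changes was not tested.

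The w libraries themselves changed between 0-1h and 2-3h, the interval in which maternal mRNA is cleared and the zygotic genome is switched on. Of the 19 tested regulatory genes 12 fell by more than 2-fold, while 13 of the 15 core genes rose by less than 2-fold. Here 12 members were lower at 2-3h and 1 higher (edgeR, more than 2-fold), where 25.4% of all genes were lower and 17.1% higher. The 12 were Rpt2, Rpt3 and Rpt5 with 9 Rpn genes, and the higher member was Rpt3R. Rpn11 fell most, from 267, 302 and 248 normalised CPM to 31.6, 41.9 and 50.1 (log2 change -2.72 ± 0.17, SE, n = 3 each, edgeR adjusted p = 4.57e-08). Rpn7 fell from 227, 248 and 196 to 37.2, 45.8 and 52.3 (log2 change -2.31 ± 0.15, SE, n = 3 each, edgeR adjusted p = 5.27e-08). Rpn1 fell from 498, 453 and 369 to 76.5, 87.5 and 103, a log2 change of -2.31. No library of 2-3h reached the level of any library of 0-1h in these 3 genes. Rpn8 had a log2 change of -2.27, Rpt5 of -2.08, Rpn9 of -1.53, Rpn2 of -1.49, Rpn10 of -1.43, Rpn3 of -1.34, Rpn5 of -1.24, Rpt3 of -1.20 and Rpt2 of -1.01. Rpt2 stood at the limit of size and was not called without w replicate 1 of 0-1h, w replicate 2 of 0-1h, or w replicate 1 of 2-3h, at -0.99, -0.99 and -0.93.

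At any size with an adjusted p below 0.05, 15 members were lower and 17 higher at 2-3h in w, where 36.6% of all genes were lower and 41.2% higher. The 17 were 13 core genes, Rpt4, Rpn6, Rpn12 and Rpt3R. Rpt4 was at 299.8, 303 and 275 at 0-1h and 476, 532 and 552 at 2-3h (log2 change 0.83 ± 0.08, SE, n = 3 each, edgeR adjusted p = 9.11e-07). Prosbeta7, an inner-ring subunit, was at 256, 282 and 255 at 0-1h and 435, 470.0 and 489.6 at 2-3h (log2 change 0.81 ± 0.08, SE, n = 3 each, edgeR adjusted p = 2.44e-06). In these genes each library of 2-3h exceeded each library of 0-1h. Rpn12 had a log2 change of 0.70 and Rpn6 of 0.34. Median log2 changes were 0.64 in the core, -0.75 among Rpt, -1.46 among Rpn and 0.25 over all genes. Scaling by upper quartiles called 11 members lower and 3 higher, adding Rpt4 and Prosbeta7 to the higher ones. The size of the core rises depended on the scaling. In TPM, the summed core level in w was 7576 to 7935 at 0-1h and 8333 to 8875 at 2-3h. Prosalpha1R, among the 13 core genes, had a mean of 861 TPM at 0-1h and 820 TPM at 2-3h. Of the pathway list, 8 of 15 genes were more than 2-fold lower at 2-3h in w, where 25.4% of all genes were. The list's median log2 change was -1.83.

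In nos- the same interval gave 8 members lower and 0 higher (edgeR, more than 2-fold), where 20.3% of all genes were lower and 12.1% higher. DESeq2 gave 8 lower and 0 higher, and at an unadjusted p below 0.05 there were 15 lower and 12 higher. The 8 were Rpt5, Rpn1, Rpn2, Rpn3, Rpn7, Rpn8, Rpn10 and Rpn11. At any size, 15 members were lower and 11 higher, where 35.5% of all genes were lower and 32.6% higher. Rpn11 was at 292, 268 and 247 normalised CPM at 0-1h and 61.8, 68.7 and 50.9 at 2-3h, a log2 change of -2.15 against -2.72 in w. Rpt5 was at 289, 288 and 266 at 0-1h and 117, 117 and 106 at 2-3h, a log2 change of -1.31 against -2.08 in w. Rpt4 went from 347, 343 and 323 to 404, 416 and 444, a log2 change of 0.32 against 0.83. Median log2 changes in nos- were 0.22 in the core and -0.90 in the regulatory particle, with 0.09 over all genes. The pathway list had 7 of 15 genes more than 2-fold lower and a median of -0.85.

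**Figure D4:**
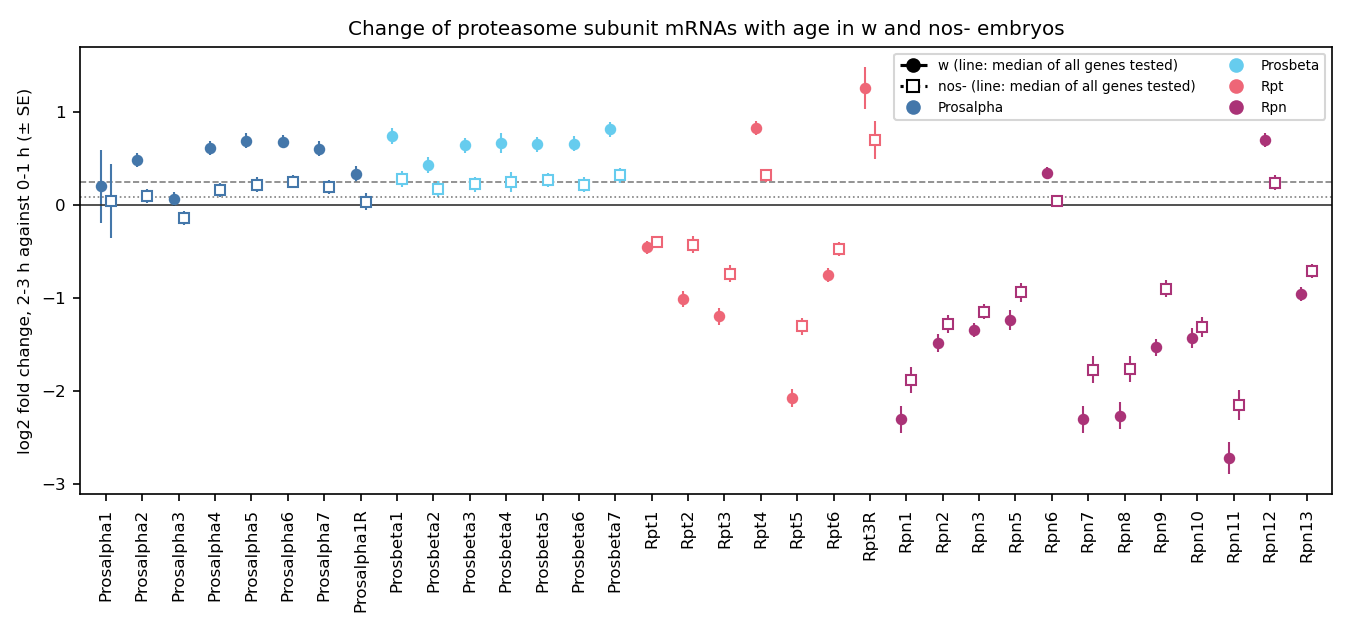
Log2 change of each tested member from 0-1h to 2-3h in w and in nos- (points, with SE bars), grouped by class. Rpn11 is at -2.72 in w and -2.15 in nos-, and Rpt4 at 0.83 and 0.32.

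Whether the effect of nos differed between the stages was tested as an interaction in the same model. It was lower at 2-3h than at 0-1h for 13 members and higher for 4 (edgeR, adjusted p below 0.05), where 19.4% of all genes tested were lower and 13.8% higher. The 13 were 10 core genes with Rpt4, Rpn6 and Rpn12, and the 4 were Rpt2, Rpt3, Rpt5 and Rpn9. Rpt5 had the largest positive difference, at 0.77 on the log2 scale (edgeR adjusted p = 0.00291), followed by Rpn9 at 0.63 (edgeR adjusted p = 0.00478). Among the called members Rpt4 had the lowest, at -0.51 (edgeR adjusted p = 0.00564). Median differences were -0.42 in the core, 0.28 in the regulatory particle and -0.10 over all genes. Of the pathway list, 2 genes were lower and 5 higher. The division into lower and higher depended on the scaling: DESeq2 called 6 members lower and 12 higher, with a median over all genes of 0.04, and upper quartile factors called 4 core and 2 regulatory genes lower and 10 regulatory genes higher. Without nos- replicate 1 of 2-3h, or without w replicate 2 of 2-3h, 5 members were called, 4 of them shared with the 17. Without w replicate 3 of 2-3h, 12 were called, 5 of them shared. No core gene was called in any of these runs.

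Rpt3R was the only member called in Nos, Upf1-NosL7, Upf1-Nos and both comparisons of nos- with w, and it was higher in each. It was at 1.56, 1.83 and 1.97 TPM in w at nuclear cycle 9 and 2.64, 2.12 and 1.90 TPM in Upf1, where the groups overlapped and the log2 change was 0.31 ± 0.18 (SE, n = 3 each, edgeR adjusted p = 0.259). It was at 5.51, 5.77 and 5.52 TPM in Nos (log2 change 1.60 ± 0.17, SE, n = 3 each, edgeR adjusted p = 8.18e-06) and at 6.81, 6.66 and 6.78 TPM in Upf1-NosL7 (log2 change 2.06 ± 0.17, SE, n = 3 each, edgeR adjusted p = 1.04e-06). In Upf1-Nos it was at 14.29, 12.31 and 13.53 TPM. The order of levels among the sorted groups was thus w with Upf1, then Nos, then Upf1-NosL7, then Upf1-Nos, with no overlap from Nos upwards. In embryos that were not sorted it was at 1.83, 1.45 and 1.43 TPM in w and 12.14, 11.82 and 14.56 TPM in nos- at 0-1h (log2 change 3.20 ± 0.23, SE, n = 3 each, edgeR adjusted p = 4.92e-06). At 2-3h it was at 2.5, 2.59 and 3.27 TPM in w and 16.86, 23.24 and 17.97 TPM in nos- (log2 change 2.64 ± 0.22, SE, n = 3 each, edgeR adjusted p = 9.22e-06). It was therefore higher both where Nos was expressed from a transgene and where maternal Nos was missing, each time against w. These groups also differ from w in strain, by the transgene and driver or by the nos- chromosomes. Rpt3R lies on chromosome arm 3R, as does the deficiency. Strain and Nos cannot be told apart in these comparisons. The difference between stages in the effect of nos was -0.56 (edgeR adjusted p = 0.172). The rise in w between the stages, 1.26 ± 0.22 on the log2 scale (SE, n = 3 each, edgeR adjusted p = 0.000247), was 0.93 and no longer called without w replicate 3 of 2-3h.

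**Figure D5:**
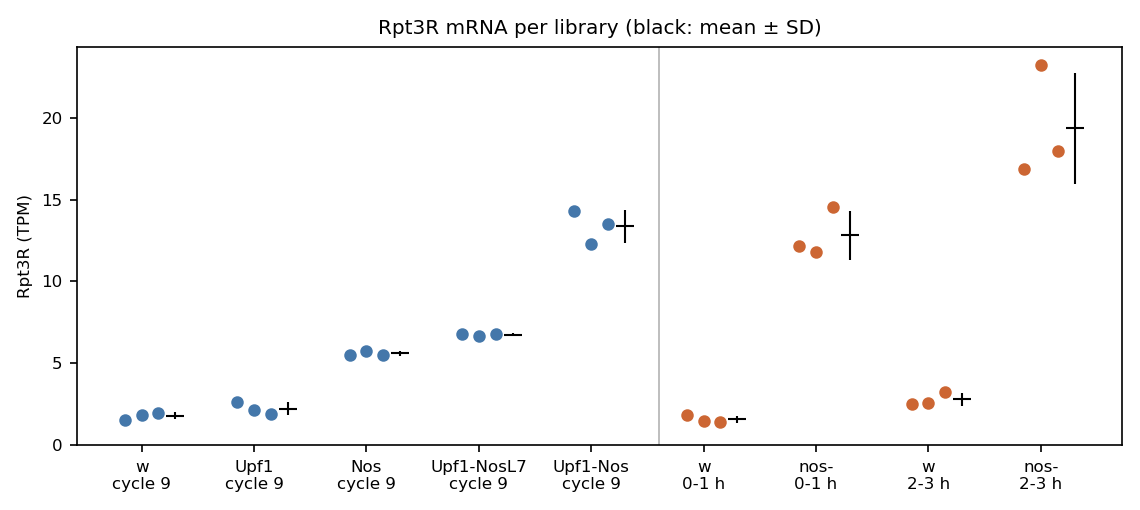
Rpt3R mRNA in TPM, 1 point per library, with the mean ± SD of each group in black. Levels are 1.56 to 1.97 TPM in w at nuclear cycle 9 and 12.31 to 14.29 TPM in Upf1-Nos, and 1.43 to 1.83 TPM in w against 11.82 to 14.56 TPM in nos- at 0-1h.

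Prosalpha1R was the abundant paralog. It was at 906, 851 and 670.2 normalised CPM in w at nuclear cycle 9 and 565, 542 and 579.7 in Nos, without overlap (log2 change -0.53 ± 0.12, SE, n = 3 each, edgeR adjusted p = 0.0066), and in Upf1-Nos it was at 675, 715 and 699, with a log2 change of -0.22. Its copy Prosalpha1 had a log2 change of -0.84 ± 0.25 in Nos (SE, n = 3 each, edgeR adjusted p = 0.0289). Neither passed 2-fold. Of the 14 paralogs that were not tested, Rpt6R, a paralog of the ATPase Rpt6, had the highest levels, at 0.96, 1.26 and 1.17 TPM in nos- at 2-3h against 0.29, 0.10 and 0.09 TPM in w. It was listed at 0 in all w libraries of 0-1h. At nuclear cycle 9 it was at 0.14, 0.10 and 0.04 TPM in w and 0.51, 0.61 and 0.87 TPM in Upf1-NosL7. These levels rest on few reads. The other 13 had group means of 0.843 TPM at most, and 1 of them had no counts in any library.

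The annotated 3′ UTRs, where Nos and its partners bind many targets, were short in both particles. Their median length was 98 nt (66 to 278) in the 14 standard core genes and 114.5 nt (60 to 320) in the 18 standard regulatory genes, against 241 nt over 6651 genes tested. Among the genes called lower in Upf1-Nos, Rpn11 had 111 nt and Rpn8 254 nt. The standard regulatory genes that were not called lower had 73 nt (Rpt2), 128 nt (Rpn12), 149 nt (Rpt4) and 320 nt (Rpn6). The strand used in counting was not given in the sources used here, and 15 tested members overlap another gene by part of their exons, so that reads from the opposite strand cannot be told apart for them. The largest overlap was that of Rpt6 with CG1801, 13.0% of the exonic length of Rpt6.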

How the data were processed

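Poly(A) RNA was sequenced in paired ends from 27 libraries of whole embryos. The authors aligned reads with STAR 2.5.3a and estimated expression with RSEM 1.3.0 on BDGP6.22, and the deposited tables hold expected counts and TPM per gene and isoform. TPM sum to a fixed total in each library, so a fall in many mRNAs raises the others. The submitters' processing notes also list R 4.2.1 and edgeR 3.40.2.

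Expected counts were rounded and tested with edgeR 4.0.16 (quasi-likelihood, R 4.3.3, limma 3.58.1), with 1 model for sorted and 1 for other embryos. Genes were kept by filterByExpr (minimum count 30, minimum total 30), which left 6857 and 8445 genes. Genes called in Upf1 against w were then left out for both fusions (6581 genes, no member lost). In Upf1-Nos, correction factors from 20 genes were used in place of TMM factors. Calls needed an adjusted p below 0.05 (Benjamini-Hochberg) and a log2 change beyond 1, or 0.5 for nos- against w; the interaction had no size limit. DESeq2 1.42.0, TMM alone, upper quartile factors, other filters, a replicate block and each library left out were the alternatives. Comparisons within an experiment share control libraries (w in the sorted embryos; each unsorted group enters more than 1 comparison) and are given side by side. Tests on simulated data preceded the fits.

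Library values were given for members called in Upf1-Nos, the extremes of each class there, the 3 highest and 3 lowest members in nos- at 2-3h and in w between stages, and paralogs at 1 TPM or more in a group mean; others named in the text were chosen after their values were seen. The members and lists were chosen with earlier results of these data known. Nothing in the labels says which replicates came from separate cultures, so p-values measure the spread between these samples.

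In nos- and w at 0-1h, deviations of libraries of the same number correlated at 0.151, 0.488 and 0.473. At 2-3h the correlations were 0.482, 0.211 and 0.117. Libraries of different numbers were not compared, so these values cannot show whether replicates were paired. Replicate numbers come from the labels. Of the pathway list, 15 of 16 genes were measured. Gene symbols came from the supplied reference tables (17587 of 17714 matched). Binding sites in 3′ UTRs were not analysed here.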

Additional observations from a re-analysis of the deposited data

Results flagged for a closer look

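For 17 members the effect of nos on the log2 scale differed between 2-3h and 0-1h in the interaction test (edgeR, adjusted p below 0.05, 3 libraries per group), where 19.4% of all genes were lower and 13.8% higher. Leaving out 1 library gave 5 to 21 members. The 10 core genes were no longer called without nos- replicate 1, w replicate 2 or w replicate 3 of 2-3h. DESeq2 and upper quartile factors each called 4 core genes lower. The difference, 2-3h minus 0-1h, was negative for 5 alpha-ring genes: Prosalpha2 had -0.39, Prosalpha4 -0.45, Prosalpha5 -0.47, Prosalpha6 -0.43 and Prosalpha7 -0.42. It was also negative for 5 beta-ring genes, with -0.46 in Prosbeta1, -0.42 in Prosbeta3, -0.39 in Prosbeta5, -0.44 in Prosbeta6 and -0.49 in Prosbeta7. In the regulatory particle it was negative for the ATPase gene Rpt4, at -0.51, and for the lid genes Rpn6, at -0.30, and Rpn12, at -0.46. It was positive for the ATPase genes Rpt2, at 0.58, Rpt3, at 0.46, and Rpt5, at 0.77, and for the lid gene Rpn9, at 0.63. The summed zygotic gap gene level also differed between genotypes at 2-3h (116 to 162 TPM in nos-, 228 to 247 TPM in w). Of the genes summed, gt and kni were lower in nos-, and Kr overlapped between the groups. The part of these levels in the differences was not tested.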

How the results depend on the processing

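No change called at its limit of size turned in direction under any alternative run. Below that limit, Prosalpha3, lower in Upf1-Nos at an adjusted p below 0.05, was above 0 with TMM factors in all libraries. Called at any size, members of the 34 tested numbered 4 in Nos (2 lower, 2 higher) and 2 in Upf1-NosL7 (1 lower, 1 higher). Over all genes, 6.55% were lower and 12.1% higher in Nos, and 7.84% lower and 5.04% higher in Upf1-NosL7. In Upf1-Nos against Upf1-NosL7, 22 of 34 members were lower, where 57.7% of all genes were. In nos- at 0-1h, 8 of 34 were higher, where 18.5% of all genes were. There were 15 higher and 8 lower in nos- at 2-3h, and 17 higher in w between stages. In nos- between stages 15 were lower and 11 higher. The shares of all genes for these last comparisons are given above. With the default filter, 2 members were higher in Upf1-Nos, 2 called in Upf1-NosL7, 2 higher in nos- at 0-1h and 3 higher in w between stages. With no filter these counts were 3, 2, 2 and 3, and the interaction gave 11. The members added were the low paralogs Rpt6R, Prosbeta5R1 and Prosbeta2R2. Upper quartile factors gave 3 higher in w between stages. Leaving out 1 library gave 5 to 21 in the interaction and 0 to 1 higher in w between stages; the cause was not tested. It gave 13 to 14 lower in Upf1-Nos, 14 to 15 against Upf1-NosL7, 7 to 11 higher in nos- at 2-3h, and 11 to 13 lower in w and 8 to 9 lower in nos- between stages. With the replicate block, 19 members were called in the interaction (Prosbeta4 and Rpt6 added), 14 were lower in Upf1-Nos, 9 higher in nos- at 2-3h, and 12 lower in w and 8 lower in nos- between stages; it changed no other count of calls. Depth limits the 14 paralogs that were not tested.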
